A study of Mus musculus with 17 samples.

Results

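The comparison set hepatocytes of Sms1/Sms2/Smsr-tKO mice (tKO), which carry lesions in Sgms1, Sgms2 and Samd8, against hepatocytes of wild-type mice (WT). It used the 3 WT and 3 tKO hepatocyte libraries, 6 of the 17 libraries of the series, and all genes that passed a filter on low counts. The 3 libraries of Sms1/Sms2-dKO hepatocytes (dKO), with lesions in Sgms1 and Sgms2 only, entered the same fit and were compared with tKO where stated. The labels give mice of 2 months for all 3 groups, with hepatocytes obtained by a 2-step collagenase method. The other 8 libraries are labelled as liver cells of WT and SMSrKO mice, which had 16 weeks of a high-fat diet and drank fructose. They served only to give a second estimate of the spread between libraries. The labels do not say how the alleles were made or which sex the mice had. They give 3 mice per group without tying each library to 1 mouse, so a p-value here is read against the differences among 3 libraries, which may be technical.

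Sgms1 and Sgms2 encode the sphingomyelin synthases SMS1, of the Golgi, and SMS2, mainly of the plasma membrane, which move phosphocholine from phosphatidylcholine to ceramide and release diacylglycerol. Samd8 encodes SMSr, a related protein of the endoplasmic reticulum that makes small amounts of ceramide phosphoethanolamine. The title of the series describes SMSr as a phospholipase C for phosphatidylethanolamine. The 3 proteins thus join the levels of ceramide, sphingomyelin, diacylglycerol and the common membrane phospholipids. Hepatocytes are the cells of the liver that make plasma proteins, bile acids and lipoproteins and break down drugs.

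Each library held 9221488 to 9665309 expected counts, which are read counts estimated per gene. Between 13246 and 13320 genes were listed in the WT files and between 13735 and 13776 in the tKO files. Of 15632 genes listed in at least 1 hepatocyte file, 11471 passed the filter and were tested. Hepatocyte RNA dominated both groups, with albumin (Alb) at 436222, 451078 and 458091 counts in WT and 372759, 361620 and 361743 in tKO. The X-inactivation RNA Xist and the Y-linked genes Uty, Kdm5d and Eif2s3y were not listed in any library, and Ddx3y had 1 count in 1 WT library, so the sex of the donors could not be read from them. Libraries of 1 group differed little, with a common biological coefficient of variation of 3.52% against 20.3% in the liver libraries. The extraction notes name sWAT for SMSrKO mice, but all 8 of these libraries had Alb at 38264 to 60867 CPM and the adipocyte gene Adipoq at 0 to 0.0716 CPM. Liver WT 1 stood apart from the others of its group, and without it the coefficient was 16.5%. A second test therefore gave every gene the common dispersion of the liver libraries, called the liver dispersion below, and used edgeR's likelihood ratio test. Levels of single genes are given in CPM, the count scaled to a TMM-adjusted library total, and sums over lists on the same scale with the plain library total. On the first principal component, with 62.9% of the variance, WT lay at −44.6 to −43.2 and tKO at 21.0 to 21.4, beside dKO at 22.6 to 23. The second, with 18.5%, set tKO, at −21.5 to −20.2, apart from dKO, at 19.6 to 21.7.

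The RNA of the 3 targeted genes did not show the lesions. Samd8 (Entrez 67630, chromosome 14, 21750531 to 21798726, GRCm38) stood at 66, 69.8 and 73.1 CPM in WT and 103, 101 and 97.6 in tKO. Sgms1 (Entrez 208449, chromosome 19, 32122727 to 32389885) stood at 51.1, 52.2 and 45.9 CPM in WT and 58.3, 62.2 and 55.6 in tKO. Sgms2 (Entrez 74442, chromosome 3, 131318985 to 131491443) stood at 183, 175 and 191 CPM in WT and 157, 148 and 144 in tKO. The tKO libraries lay above WT for Samd8 and Sgms1 and below WT for Sgms2, without overlap, as in 53.4% of all tested genes. The log2 fold changes, tKO minus WT, were 0.53 ± 0.0575 (SE; edgeR adjusted p = 5.41e-13) for Samd8, 0.24 ± 0.0662 (SE; edgeR adjusted p = 0.00178) for Sgms1 and −0.29 ± 0.0519 (SE; edgeR adjusted p = 3.83e-06) for Sgms2. The counts cover whole genes, so loss of part of a transcript or of a protein would not show. The deposited gene length, an abundance-weighted mean over transcripts, was 6997 bases for Samd8 in all 9 libraries and 5791 for Sgms2, and ranged from 3344 to 3382 for Sgms1 in WT and from 3359 to 3365 in tKO. The groups are called by their labels, which these values did not check. Samd8, Sgms1 and Sgms2 lost the call with the liver dispersion (edgeR likelihood ratio adjusted p = 0.189 to 0.778).

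tKO hepatocytes differed from WT in a large share of their genes, with the steepest rises in genes that were low in WT and falls in most of the very abundant genes. edgeR's quasi-likelihood test with Benjamini-Hochberg adjustment called 5435 of 11471 genes (47.4%), 2935 higher (25.6%) and 2500 lower (21.8%) in tKO, and 897 of them changed at least 2-fold (7.82%), 695 higher (6.06%) and 202 lower (1.76%). With the liver dispersion 1221 genes were called (10.6%), 877 higher (7.65%) and 344 lower (3%), and the share of higher genes among calls was 71.8% against 54.0%. These shares are the background for every count of list members below, and the median log2 fold change of all tested genes was −0.0035. Among genes under 1 FPKM in WT, 468 of 1344 rose at least 2-fold (34.8%), while of 58 genes at 1000 FPKM or more 42 fell and 11 rose. A gene so low in WT could pass the filter through the knockout groups alone. The 10 most abundant genes held 12.3% to 12.4% of the WT libraries and 10.5% to 10.8% of the tKO libraries.

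**Figure D1:**
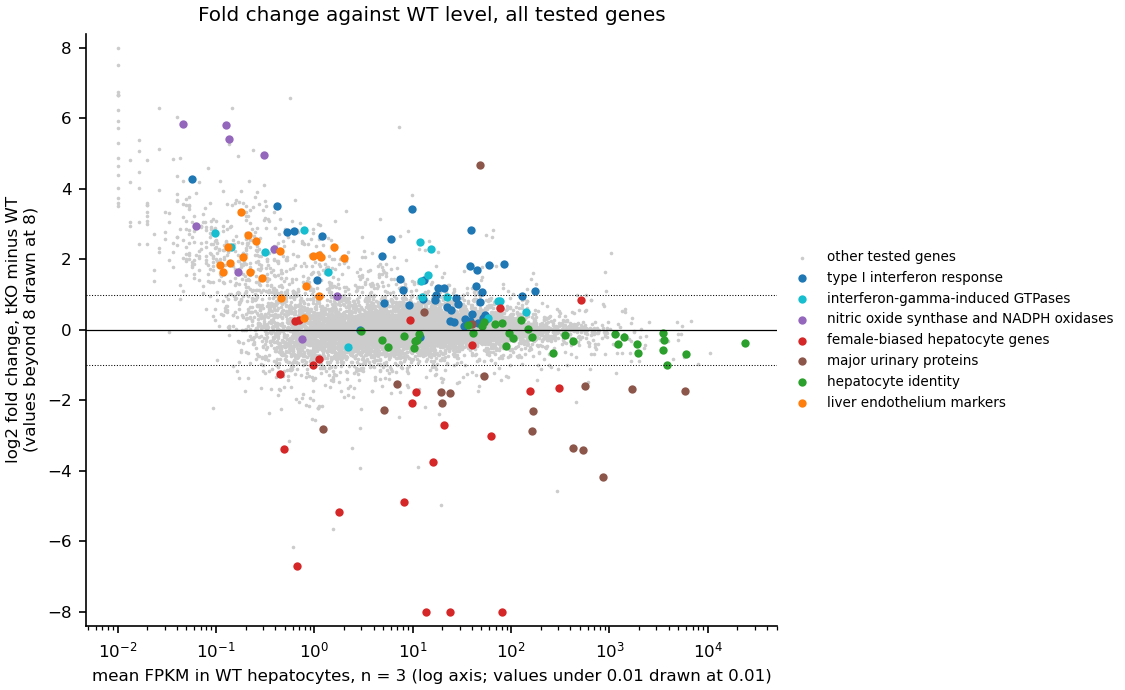
Log2 fold change, tKO minus WT, of every tested gene against its mean FPKM in WT (log axis), with 7 gene lists in colour; dotted lines mark 2-fold. Many of the large rises lie at the low end of the axis, while most major urinary protein and female-biased genes lie below 0 over a wide range of levels and Mup20 stands apart above it. Values beyond 8 are drawn at 8.

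Among the genes with the largest rises were enzymes that make reactive oxygen and nitric oxide. Cybb, the catalytic subunit of the phagocyte NADPH oxidase, had 4, 2 and 0 counts in WT and 146, 108 and 131 in tKO. Nos2, the inducible nitric oxide synthase, had 3, 7 and 4 counts in WT and 295, 277 and 274 in tKO. The dual oxidase Duox2 had 7, 4 and 6 counts in WT and 248, 254 and 276 in tKO, and its maturation factor Duoxa2 had 8, 2 and 3 counts in WT and 144, 158 and 135 in tKO. All tKO libraries thus lay far above all WT libraries. Against dKO the log2 differences were small, with −0.26 for Nos2, 0.13 for Duox2 and 0.54 for Cybb, tKO minus dKO. Summed over the 14 listed genes of this family, the level was 10.1 to 12.6 CPM in WT and 103 to 107 CPM in tKO. Of 15 genes in the list 9 passed the filter, some only through their level in the knockout groups, so no count is given as support. Without WT replicate 1 the log2 fold change of Cybb was 6.77 instead of 5.84, and that of Duoxa2 5.73 instead of 4.95.

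Other steep rises were in Cib3, a calcium and integrin binding protein, at 0.439, 0.324 and 0.217 CPM in WT and 31.1, 34.3 and 32.6 in tKO. Lpl, the lipoprotein lipase, which adult hepatocytes normally keep low, stood at 0.439, 0.324 and 0.867 CPM in WT and 22.5, 22.1 and 20.5 in tKO. Cyp26b1, a retinoic acid hydroxylase, stood at 0.439, 0.54 and 0.542 CPM in WT and 9.18, 10.3 and 9.66 in tKO. For each of the 3 genes the groups were more than 10-fold apart, but all had fewer than 10 counts in every WT library and passed the filter only through the knockout groups, so no test is given. The laminin chain Lama3 rose by 3.60 log2, from 10, 11 and 9 counts in WT to 124, 139 and 126 in tKO. The syndecan Sdc3 rose by 3.47, from 15, 7 and 11 counts in WT to 134, 118 and 139 in tKO. Both were likewise too low in WT to pass the filter without the knockout groups. Sex-biased genes were among the steepest falls. Cyp2b9 had 1280, 1386 and 1365 counts in WT and 2, 1 and 2 in tKO, and the steroid dehydrogenase Hsd3b5 had 22, 24 and 20 counts in WT and 0, 1 and 0 in tKO.

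**Figure D2:**
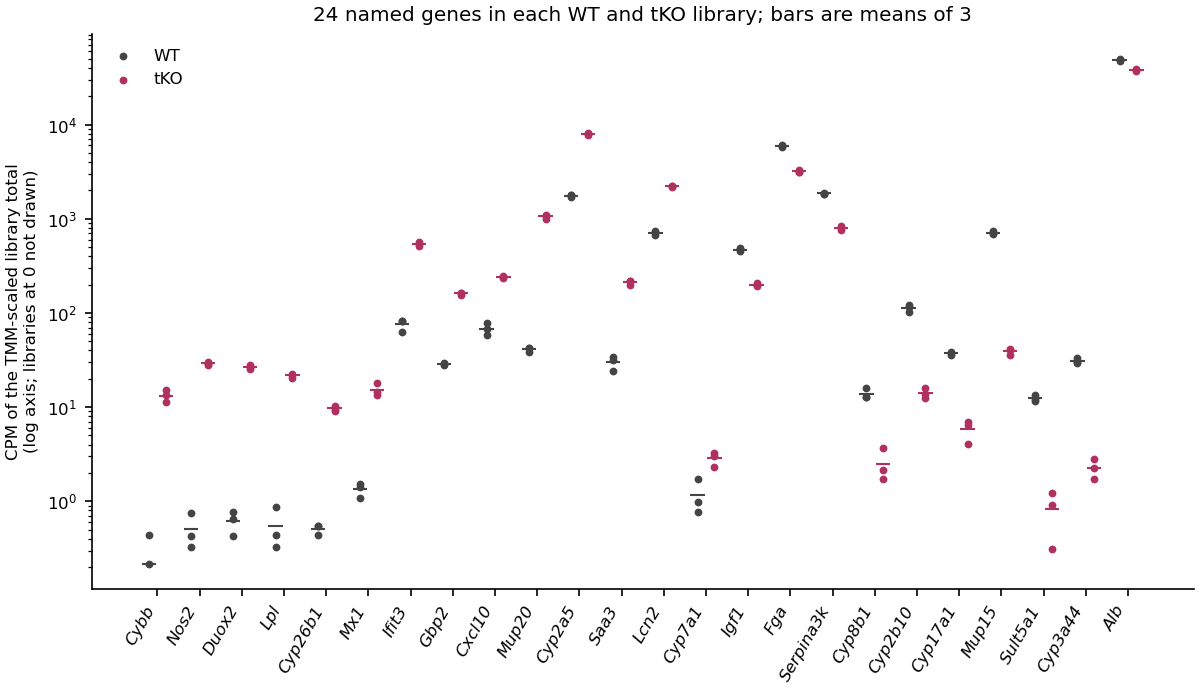
CPM (log axis) of 24 named genes in each of the 3 WT and 3 tKO libraries, with bars at the means. For every gene shown the WT and tKO libraries do not overlap, from Cybb, near 0 in WT, to Alb, at 48739 CPM in WT and 37624 in tKO. Many of these genes were named by a rule that required groups without overlap, which 53.4% of all tested genes had.

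Genes of the type I interferon response rose as a group. These genes encode antiviral proteins and are switched on through the interferon-stimulated response element, a motif that IRF9 binds. Of 45 genes in the list, all tested, 42 rose and 1 fell, and 23 rose at least 2-fold, with a median log2 fold change of 1.0. Under the liver dispersion 31 higher and 0 lower were called. Among the effectors, Ifit3b, of the RNA-binding Ifit family, stood at 14.9, 22.4 and 20.3 CPM in WT and 223, 200.2 and 203 in tKO, a log2 fold change of 3.44 ± 0.0712 (SE; edgeR adjusted p = 1.89e-44). Ifit3 stood at 62.9, 81.2 and 82.1 CPM in WT and 568, 544 and 511 in tKO, Isg15, a ubiquitin-like modifier, at 51.7, 61.3 and 62 CPM in WT and 210.0, 219 and 206 in tKO, and Rsad2, viperin, at 194, 233 and 245 CPM in WT and 860.5, 793 and 766 in tKO. The GTPase Mx1 rose from a low level, 1.53, 1.41 and 1.08 CPM in WT and 13.4, 14.6 and 18 in tKO, and the RNA sensor Oas3 stood at 2.85, 3.57 and 2.49 CPM in WT and 19.2, 20.8 and 23 in tKO. In Ifit3b, Ifit3, Rsad2, Mx1 and Oas3 the lowest tKO library was at least 3-fold above the highest WT library.

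Of the 13 sensors and transcription factors of the pathway 11 rose and 1 fell, 4 of them at least 2-fold, beside 31 of 32 effectors, 19 of them at least 2-fold. The transcription factor Irf7 rose from 80.8 ± 5.39 to 262 ± 6.45 CPM and Zbp1, a sensor of Z-form nucleic acids, from 60.1 ± 3.01 to 213 ± 13.8 CPM. Stat2 rose by 0.31 log2 and Irf9 by 0.26, and the cytosolic RNA sensors Ddx58 and Ifih1 by 1.0 and 0.83. The effector Ifit1 rose from 114 ± 16 to 269.6 ± 15.7 CPM. The receptor chain Ifnar2 rose by 0.32 and Ifnar1 fell by 0.20 on the log2 scale. Irf3 was not called, nor was Oas1b, an effector that stood at 5.22 CPM in WT and 5.21 in tKO. Summed over the list, the level was 3350.2 to 3646 CPM in WT and 7370.1 to 7482 CPM in tKO. Ifnar1, Ifnar2, Irf9 and Stat2 lost the call with the liver dispersion (edgeR likelihood ratio adjusted p = 0.616 to 0.845).

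Promoter windows of 6 of the risen interferon genes are printed to show the element itself. They come from RefSeq (GRCm38.p6), read 5′ to 3′ on the strand of the gene, and lie within the 250 bases before the annotated start. Capitals mark the letters of the element, GAAA, any 2 bases and GAAA, on either strand, which read TTTC, any 2 bases and TTTC from the other side. Overlapping matches merge into 1 run of capitals.
Isg15, chr4:156200850-156200921, minus strand: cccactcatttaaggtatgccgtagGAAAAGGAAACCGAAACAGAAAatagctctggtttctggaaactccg
Ifit1, chr19:34640760-34640838, plus strand: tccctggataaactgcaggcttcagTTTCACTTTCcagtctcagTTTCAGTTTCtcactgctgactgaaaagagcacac
Ifit3, chr19:34583348-34583441, plus strand: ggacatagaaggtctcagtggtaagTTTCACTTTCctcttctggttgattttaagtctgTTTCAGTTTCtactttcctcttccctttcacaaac
Gbp2, chr3:142620579-142620638, plus strand: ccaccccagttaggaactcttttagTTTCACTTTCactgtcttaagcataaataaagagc
Gbp3, chr3:142559974-142560039, plus strand: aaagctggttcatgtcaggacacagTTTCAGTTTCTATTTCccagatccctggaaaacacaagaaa
Gbp7, chr3:142530258-142530317, plus strand: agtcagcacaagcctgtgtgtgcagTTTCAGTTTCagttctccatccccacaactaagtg

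The nearest match to the start began 66 bases before it in Isg15, 85 in Ifit1, 122 in Ifit3, 59 in Gbp2, 39 in Gbp3 and 53 in Gbp7. The letters were found in 26 of 49 promoters of the interferon and GTPase lists (53.1%), against 3.15% of 11794 promoters of 9251 tested genes. Members of the 2 lists were chosen as interferon-induced genes, so a high share there came in part from the choice. Among genes at least 2-fold higher in tKO the share was 8.94% of 682 promoters, and 6.7% of 657 without the members of those 2 lists. Among genes at least 2-fold lower it was 0.99% of 202. Gbp3 has another annotated start whose window held no match. Promoters of Irf7, Oasl2, Ifi44, Ifit2, Psmb9 and Tap1 held no such match in this window. The AP-1 letters TGANTCA, bound by Fos and Jun, were in 11.1% of promoters of genes at least 2-fold higher, 6.93% of those at least 2-fold lower and 5.28% of all. A match is a description of the letters and was not tested as a binding site.

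GTPases of the Gbp and Irg families, which act on membranes around microbes and are induced mainly by interferon gamma, followed the same direction. Of 18 in the list 16 were tested, and 15 rose and 1 fell (9 and 0 at least 2-fold), with a median of 1.47. The liver dispersion left 13 higher and 0 lower. Gbp2 stood at 29.3, 28.1 and 28.6 CPM in WT and 164, 156 and 163 in tKO, a log2 fold change of 2.49 ± 0.0599 (SE; edgeR adjusted p = 2.67e-52). Gbp3 stood at 39.4, 42.5 and 42.1 CPM in WT and 213, 196 and 204 in tKO and Gbp9 at 1.86, 2.81 and 3.68 CPM in WT and 22.9, 18.4 and 18.6 in tKO. The tKO libraries lay above WT in all 3 genes without overlap. Gbp7 rose from 70.3 ± 2.65 to 134 ± 11.3 CPM. Igtp and Irgm1, already at 155 and 159.6 CPM in WT, rose by 0.83 and 0.82 log2, while Gbp11, the member that fell, changed by −0.48. Gbp11 was not called without WT replicate 3 (−0.44), tKO replicate 7 (−0.44) or tKO replicate 9 (−0.38). Members of both families share long stretches of sequence, so single values are uncertain. Gbp11 lost the call with the liver dispersion (edgeR likelihood ratio adjusted p = 0.438).

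Genes of peptide presentation on MHC class I rose in most members. Of 20 class I and loading genes 18 rose and 0 fell, 4 of them at least 2-fold, and 9 were called with the liver dispersion. The immunoproteasome subunits Psmb8, Psmb9 and Psmb10, which replace standard subunits under interferon, rose from 30.5 ± 2.09 to 68 ± 1.23 CPM, from 6.27 ± 0.0995 to 15.4 ± 0.292 CPM and from 27.7 ± 1.01 to 67.5 ± 1.92 CPM. The nonclassical class I gene H2-T22 stood at 250.3, 280.1 and 266 CPM in WT and 602, 600.3 and 589.8 in tKO. B2m, the class I light chain, stood at 1084, 1073 and 1077 CPM in WT and 1635, 1510.1 and 1515 in tKO. The groups did not overlap in either. The peptide transporter chain Tap2 rose by 0.95 log2 and Tapbp, the editor of the loading complex, by 0.86. Standard proteasome subunits did not share the rise, with 2 higher and 10 lower of 30 and a median of −0.03. The class II genes were low: Cd74 had 16, 13 and 18 counts in WT and 54, 58 and 58 in tKO and H2-Aa 3, 2 and 3 counts in WT and 24, 11 and 18 in tKO, while H2-Ab1 was lower in tKO, with 33, 53 and 61 counts in WT and 30, 30 and 25 in tKO. The MHC genes are near-identical and polymorphic, so their single values are uncertain. B2m lost the call with the liver dispersion (edgeR likelihood ratio adjusted p = 0.183).

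Chemokines and cytokine genes rose beside the interferon genes. Of 13 tested chemokines of 20 in the list, 12 rose and 1 fell, 10 of them at least 2-fold. Ccl2, which draws monocytes, stood at 39.4, 38.2 and 46.9 CPM in WT and 274, 265 and 271 in tKO, a log2 fold change of 2.70 ± 0.055 (SE; edgeR adjusted p = 2.01e-57). Cxcl1 stood at 63.9, 56.5 and 69 CPM in WT and 230.0, 210.3 and 219 in tKO and Cxcl10, an interferon-induced ligand of CXCR3, at 57.7, 67.3 and 77.7 CPM in WT and 244, 243 and 234 in tKO. Every tKO library exceeded every WT library in the 3 genes. Of 18 tested interleukin, TNF family and receptor genes of 24, 13 rose and 3 fell. The antagonists were among them: Il1rn, which blocks the interleukin 1 receptor, rose from 43.9 ± 2.24 to 204 ± 4.99 CPM and Il18bp, which binds interleukin 18, from 11.7 ± 1.21 to 45.8 ± 2.64 CPM. The alarmin Il33 went down, standing at 35, 33.3 and 35.1 CPM in WT and 14.8, 12.6 and 13.7 in tKO, and the receptor Il1r1 fell from 195 ± 15.5 to 147 ± 11.2 CPM. The cytokines Il1b, Il6 and Tnf did not pass the filter. Il1r1 lost the call with the liver dispersion (edgeR likelihood ratio adjusted p = 0.403).

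Of 25 tested NF-kappaB pathway genes of 26, 21 rose and 0 fell, with a median of 0.47, and with the liver dispersion 9 higher and 0 lower were called. Its inhibitors Nfkbia and Tnfaip3 rose from 62.1 ± 1.73 to 141 ± 3.95 CPM and from 36.8 ± 1.64 to 86 ± 2.15 CPM, and the adhesion molecules Icam1 and Vcam1 from 112 ± 3.55 to 206 ± 11.5 CPM and from 3.88 ± 0.223 to 18 ± 1.42 CPM. The subunits moved little, with Rela at 0.13 log2 and Nfkb1 at 0.23, and Rela was not called without WT replicate 1, with a log2 fold change of 0.10. Myd88, Birc2, Ripk2 and Nfkbie were not called. Nfkb1 and Rela lost the call with the liver dispersion (edgeR likelihood ratio adjusted p = 0.791 to 0.929).

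Acute phase proteins, which hepatocytes secrete under interleukin 1 and interleukin 6, split between directions. Of 26 genes, all tested, 12 rose and 13 fell, with a median of −0.14, and with the liver dispersion 6 higher and 7 lower were called. The serum amyloid gene Saa3 stood at 32, 24.4 and 33.9 CPM in WT and 219, 199 and 219 in tKO, a log2 fold change of 2.82 ± 0.0665 (SE; edgeR adjusted p = 1.13e-36). Lcn2, lipocalin 2, which binds bacterial iron carriers, stood at 727, 734 and 675 CPM in WT and 2247, 2209.9 and 2193 in tKO, and C-reactive protein (Crp) at 261, 260.2 and 273 CPM in WT and 756, 725 and 683 in tKO. In these 3 genes tKO lay above WT without overlap. The fibrinogen chains went the other way: Fga stood at 6055, 5911 and 5767 CPM in WT and 3315, 3148 and 3159 in tKO, Fgb fell from 7309 ± 286 to 4083 ± 141 CPM and Fgg from 2792 ± 51 to 1501 ± 29.1 CPM. Together the 3 chains took 15477 to 16329 CPM in WT and 8734 to 9155 in tKO. The protease inhibitor Serpina3k fell as well, from 1856 ± 35.8 to 796 ± 38.3 CPM, as did Itih4, from 2024 ± 56.5 to 1269 ± 41.2 CPM. Serpina3 genes have close copies, so Serpina3k is uncertain.

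In the clotting and complement list, 17 genes rose and 19 fell of 49 tested of 50. Of the 17, Thbd had 6, 5 and 11 counts in WT and 150, 155 and 135 in tKO. It was too low in WT to pass the filter without the knockout groups and is not given as support. C6, of the membrane attack complex, stood at 5.7, 6.59 and 5.63 CPM in WT and 61, 64.2 and 60.4 in tKO, a log2 fold change of 3.37 ± 0.0993 (SE; edgeR adjusted p = 4.25e-46). Factor B (Cfb), of the alternative pathway, rose from 1289 ± 19.4 to 2538 ± 6.89 CPM. Tissue factor (F3) rose from 19.7 ± 1.61 to 43.6 ± 2.08 CPM. Prothrombin (F2) fell by 0.34 on the log2 scale and C3, at 9003 CPM in WT and 8655 in tKO, was not called. F2 lost the call with the liver dispersion (edgeR likelihood ratio adjusted p = 0.549).

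Iron genes moved in both directions. Of 17 tested 5 rose and 10 fell. The hepcidin gene Hamp fell by 0.40 on the log2 scale and its paralog Hamp2 from 93.9 ± 6.3 to 45.3 ± 3.95 CPM, while Id1, a target of the BMP pathway that drives hepcidin, stood at 27.2, 22.2 and 27.4 CPM in WT and 10.5, 9.26 and 7.83 in tKO. Bmp6, the ligand of that pathway, stood at 1.97, 2.16 and 1.73 CPM in WT and 7.84, 9.16 and 8.14 in tKO, in the opposite direction from Id1. The transferrin receptor Tfrc rose from 40.4 ± 1.24 to 82.5 ± 2.06 CPM and transferrin itself (Trf) fell from 13836 ± 303 to 8577 ± 148 CPM. The metal-binding metallothioneins Mt1 and Mt2 fell from 4100.2 ± 131 to 2105 ± 260.1 CPM and from 2796 ± 38.9 to 1653 ± 138 CPM. Liver Bmp6 is made largely by endothelial cells, whose markers are given below, and their part in its value was not tested. Hamp lost the call with the liver dispersion (edgeR likelihood ratio adjusted p = 0.417).

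Abundant secreted products of hepatocytes were mostly lower. Of 20 marker proteins in the identity list 16 fell and 2 rose, while of 14 tested hepatocyte transcription factors of 16, 6 fell and 3 rose. Alb stood at 47822, 48759.8 and 49636 CPM in WT and 38463, 37622 and 36787 in tKO, a log2 fold change of −0.37 ± 0.0299 (SE; edgeR adjusted p = 6.32e-19). The 5 Serpina1 genes, which encode alpha-1 antitrypsin, together stood at 16048 to 16727 CPM in WT and 9958 to 10605 in tKO. The WT sum was 1.60-fold the tKO sum over these 5 copies, which are near-identical and cannot be parted with certainty. The whole list took 95825 to 97787 CPM in WT and 72708 to 75254 CPM in tKO, and 35 genes without Alb took 48478 to 49172 and 35281 to 36540 CPM. Hnf4a, a central hepatocyte transcription factor, rose by 0.13 log2 and was not called without tKO replicate 8, at 0.09. Cebpa and Foxa3 were not called. Of the list 0 higher and 2 lower genes were called with the liver dispersion, Trf and Serpina1c. Alb and Hnf4a lost the call with the liver dispersion (edgeR likelihood ratio adjusted p = 0.477 to 0.924).

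Sex-biased genes, which in mouse liver follow the pulses of growth hormone, fell on both sides. Of 24 female-biased genes 23 were tested, and 3 rose and 18 fell (16 fell at least 2-fold), with a median of −1.77. The liver dispersion left 1 higher and 16 lower. Cyp2b13 had 400, 394 and 404 counts in WT, 478, 478 and 427 in dKO, and was not listed in the tKO files, which makes it at least 413-fold lower when 3 counts over the group are taken as the floor. The sulfotransferase Sult2a2 had 95, 77 and 80 counts in WT, 166, 167 and 168 in dKO and was likewise not listed in tKO, at least 86.9-fold lower. Cyp2b10 stood at 103, 121 and 116 CPM in WT and 15.9, 13.8 and 12.6 in tKO, and dKO, at 56.1, 53.6 and 52.5 CPM, lay between them. Cyp17a1, a steroid hydroxylase, stood at 36.2, 37.6 and 38.5 CPM in WT and 6.91, 6.45 and 4.07 in tKO, with a log2 difference from dKO of −2.01 ± 0.12 (SE; edgeR adjusted p = 1.61e-24). Cyp2a4 was 1 of the 3 that rose, by 0.85 log2, and it is a close copy of Cyp2a5. Summed over the female-biased list, the level was 2602 to 2685 CPM in WT and 2488 to 2633 in tKO, so the sums overlapped.

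Of 25 male-biased genes 23 were tested, and 5 rose and 14 fell, 13 of the falls at least 2-fold. The major urinary proteins, male pheromone carriers of the lipocalin family, made up much of this. Of 21 Mup genes 18 were tested, and 2 rose and 12 fell, every fall at least 2-fold. Mup15 stood at 732, 684 and 707 CPM in WT and 41.5, 35.7 and 40.6 in tKO and Mup3 at 1445, 1426 and 1411 CPM in WT and 465, 446 and 426 in tKO, both lower in tKO without overlap. Mup20 (darcin), the copy that carries the male territorial signal, stood at 42.1, 42.9 and 38 CPM in WT and 1105, 1074 and 996 in tKO, with dKO between at 200.3, 219.9 and 212. Summed without Mup20, the listed genes of the family took 8360 to 8482 CPM in WT and 2192 to 2386 in tKO, 3.68-fold less. This sum leaves out Gm21320, which lies between Mup11 and Mup15 on chromosome 4. It stood at 10168, 9858 and 9623 CPM in WT and 6530, 6265 and 5903 in tKO, above that sum in each group. Gm21320 fell by 0.67 log2 and lost the call with the liver dispersion (edgeR likelihood ratio adjusted p = 0.0519). Mup genes are near-identical, so the sum is firmer than its parts, but it may depend on how reads were shared with Gm21320. Cyp4a12b, a male-specific omega hydroxylase, was not listed in WT and had 22, 25 and 24 counts in tKO, at least 22.9-fold higher. Its neighbour Cyp4a12a rose from 1.01 ± 0.375 to 3.81 ± 0.401 CPM. Both were too low in WT to pass the filter without the knockout groups. Slco1a1, a male-biased organic anion carrier, fell from 68.6 ± 1.57 to 31.7 ± 6.32 CPM.

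The growth hormone axis itself was mixed, among its targets too, of which 2 rose and 3 fell of 7 tested. Igf1, the main hepatic product of growth hormone signalling, stood at 476, 483 and 454 CPM in WT and 209, 196 and 195 in tKO, a log2 fold change of −1.24 ± 0.0416 (SE; edgeR adjusted p = 4.89e-42). The receptor Ghr fell from 125 ± 4.44 to 91.7 ± 4 CPM and the feedback inhibitor Socs2 from 25.3 ± 1.33 to 16.4 ± 0.839 CPM. Socs1 and Socs3, inhibitors that cytokines also induce, rose from 3.95 ± 0.433 to 7.14 ± 0.461 CPM and from 41.8 ± 3.01 to 59.9 ± 1.21 CPM. Stat5b, Cish, Bcl6 and Igfals were not called. Of 21 tested genes in the list of 22, 7 rose and 7 fell. Ghr, Socs2 and Socs3 lost the call with the liver dispersion (edgeR likelihood ratio adjusted p = 0.107 to 0.328).

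Cytochromes P450 of drug metabolism fell more often than they rose, while their summed level was higher through 1 gene. Of 42 genes tested 11 rose and 22 fell. Cyp2a5, which oxidises coumarin and nicotine, stood at 1799.8, 1768 and 1699 CPM in WT and 8102, 7887 and 7652 in tKO, and in dKO at 1871, 1913 and 1859 CPM, near WT. Against dKO it was higher in tKO by 2.07 ± 0.0342 (SE; edgeR adjusted p = 2.32e-63) on the log2 scale. The whole list took 14147 to 14221 CPM in WT and 19520.0 to 20666 CPM in tKO. Without Cyp2a5 the same sums were 12394 to 12534 and 11735 to 12512 CPM. Cyp2a4 and Cyp2a5, which share most of their sequence, together took 2524 to 2628 CPM in WT and 9278 to 9773 in tKO. Cyp3a11 rose from 1707 ± 37.5 to 2864 ± 192 CPM and Cyp2c38 from 17.1 ± 0.61 to 47 ± 4.72 CPM. Cyp2c37 fell from 322 ± 8.04 to 120.4 ± 2.05 CPM, Cyp2c40 from 424 ± 4.33 to 214 ± 12.9 CPM and Cyp2e1, which oxidises ethanol, from 2722 ± 44.9 to 2279 ± 89 CPM. The reductase Por, which feeds electrons to all of them, was at 589.8 CPM in WT and 580.0 in tKO and was not called. Of 23 tested nuclear receptors, several of which control these enzymes, 7 rose and 4 fell. Nr1i2 (PXR) rose from 6.66 ± 0.413 to 10.7 ± 1.68 CPM, and Nr1i3 (CAR), with 7.79 CPM in WT and 8.48 in tKO, was not called. Cyp2e1 and Nr1i2 lost the call with the liver dispersion (edgeR likelihood ratio adjusted p = 0.102 to 0.734).

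Conjugating enzymes split by family. Of 19 glutathione transferases 11 rose and 5 fell, and of 20 tested glucuronosyl and sulfotransferases 3 rose and 13 fell. Gstm3 stood at 11.7, 9.19 and 12.9 CPM in WT and 155, 170.0 and 156 in tKO, a log2 fold change of 3.83 ± 0.0776 (SE; edgeR adjusted p = 1.47e-57). Gsta2 stood at 43.6, 40.2 and 37.1 CPM in WT and 119, 121 and 101 in tKO, and both groups lay apart. Ugt1a5 fell from 64.4 ± 4.71 to 24.6 ± 3.4 CPM, Ugt1a1, the bilirubin transferase, from 481 ± 14 to 320.4 ± 4.65 CPM, and Sult5a1 from 12.4 ± 0.858 to 0.822 ± 0.47 CPM. Of 22 tested NRF2 targets 10 rose and 6 fell. Nqo1, Srxn1, Txnrd1 and Hmox1 were not called, and Gclc, of glutathione synthesis, fell from 2382 ± 44.3 to 1484 ± 94.4 CPM. Ugt1a1 lost the call with the liver dispersion (edgeR likelihood ratio adjusted p = 0.114).

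Genes of ceramide synthesis, upstream of the targeted enzymes, changed by small steps. Ceramide is made from serine and palmitoyl-CoA, moved to the Golgi by CERT, and turned there into sphingomyelin or glucosylceramide. In de novo ceramide synthesis 12 of 19 genes were tested, 5 rose and 2 fell, none of them by 2-fold or more. Sptlc2, of the first enzyme, stood at 113, 111 and 114 CPM in WT and 174, 159 and 161 in tKO, and Col4a3bp, which encodes CERT, at 52.1, 46.5 and 47.7 CPM in WT and 72.5, 68.6 and 72.1 in tKO. The reductase Kdsr rose by 0.46 log2, the desaturase Degs1 by 0.45, and the ceramide synthases Cers2, Cers5 and Cers6 were not called. With the liver dispersion none of the list was called. An unadjusted edgeR p under 0.05 was reached by 7 of the 12, near the share over all tested genes, 53.1%. Col4a3bp, Degs1, Kdsr and Sptlc2 lost the call with the liver dispersion (edgeR likelihood ratio adjusted p = 0.157 to 0.329).

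Glycosphingolipid genes rose more. Of 18 tested of 21, 10 rose and 3 fell, with a median of 0.42. B4galt5, which makes lactosylceramide, stood at 49.8, 55.8 and 52.7 CPM in WT and 101, 109 and 106 in tKO, a log2 fold change of 1.0 ± 0.0592 (SE; edgeR adjusted p = 4.88e-26). Ugcg, which starts the branch from ceramide, rose from 180.2 ± 6.1 to 251 ± 11.1 CPM, while St3gal5, which makes the ganglioside GM3, fell from 41.6 ± 3.03 to 29.9 ± 0.321 CPM. The lysosomal enzymes that take the lipids apart rose too: the sulfatase Arsa from 53.7 ± 2.53 to 133 ± 15 CPM, the sialidase Neu1 from 43.5 ± 1.68 to 82.8 ± 3.77 CPM and the galactosidase Gla from 42.9 ± 1.93 to 75.5 ± 0.375 CPM. Of 24 tested genes of ceramide and sphingomyelin breakdown and sphingosine phosphate, 9 rose and 5 fell. Acid ceramidase (Asah1) rose from 55.2 ± 2.17 to 97.9 ± 8.11 CPM and the sphingomyelinase-like Smpdl3b from 0.868 ± 0.322 to 2.68 ± 0.827 CPM, while acid sphingomyelinase (Smpd1) stood at 35.8 CPM in WT and 35.8 in tKO and was not called. Sgpl1, which ends the pathway by cleaving sphingosine phosphate, rose by 0.27 log2. The receptor S1pr1 fell from 33 ± 0.821 to 21.4 ± 0.665 CPM and S1pr3 rose from 0.145 ± 0.126 to 1.3 ± 0.245 CPM. Smpdl3b and S1pr3 were too low in WT to pass the filter without the knockout groups. Their rises, counted among the 9, are thus not given as support. S1pr1, Sgpl1, St3gal5 and Ugcg lost the call with the liver dispersion (edgeR likelihood ratio adjusted p = 0.101 to 0.708).

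The lysosome followed. Of 28 tested genes 24 rose and 1 fell, with a median of 0.48 and 7 higher and 1 lower with the liver dispersion. The 10 proton pump subunits, which acidify the lysosome, together took 1087 to 1124 CPM in WT and 1693 to 1720.2 in tKO, 1.54-fold more, and 9 of them rose. Gpnmb, a glycoprotein that marks loaded lysosomes, stood at 11, 10.8 and 11.1 CPM in WT and 32.1, 39 and 36.7 in tKO, and the groups did not overlap. The protease Ctsb rose from 1092 ± 18.1 to 1731 ± 41.2 CPM and the membrane protein Lamp1 from 499 ± 2.82 to 622 ± 4.64 CPM. Summed, the list took 6737 to 6779.8 CPM in WT and 9102 to 9347 CPM in tKO. Ctsb and Lamp1 lost the call with the liver dispersion (edgeR likelihood ratio adjusted p = 0.052 to 0.608).

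**Figure D3:**
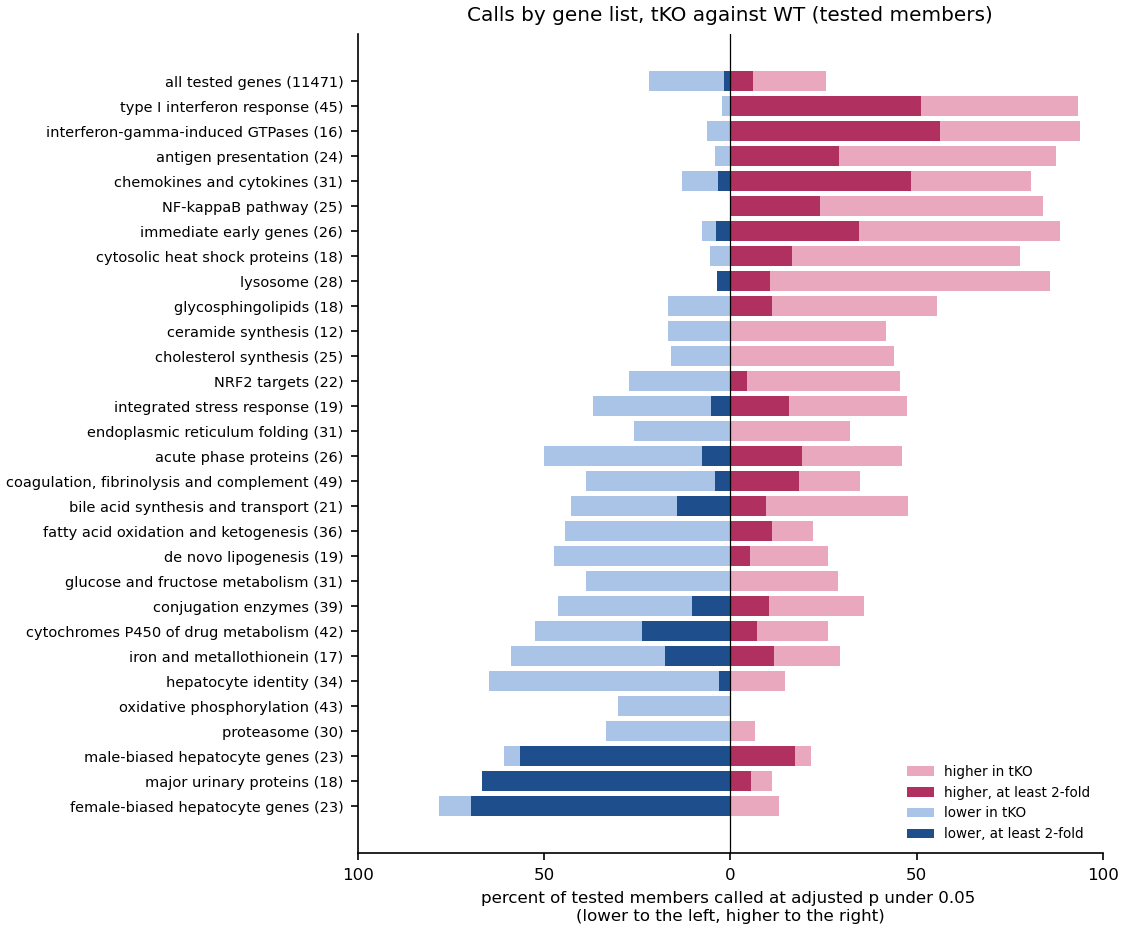
Percent of tested members called higher (right) and lower (left) in tKO for 29 gene lists, with darker bars for changes of at least 2-fold, below the same shares for all 11471 tested genes. Interferon, GTPase and lysosome genes lie almost wholly to the right, hepatocyte identity, urinary protein and female-biased genes mostly to the left, and acute phase genes are split.

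The substrates of SMSr and the synthases are made by the choline and ethanolamine branches, where 3 of 15 tested genes rose and 4 fell. Choline kinase (Chka) rose from 107 ± 0.66 to 188 ± 10 CPM, and Lpcat3, which remodels phosphatidylcholine, fell from 107 ± 6.42 to 78.4 ± 2.07 CPM. Pemt and Pcyt2, of phosphatidylethanolamine metabolism, were not called, with log2 fold changes of 0.01 and −0.0042. Of 18 tested phospholipase C, diacylglycerol kinase and protein kinase C genes of 29, 4 rose and 3 fell. Plcxd2 rose from 236 ± 12.1 to 321 ± 22.8 CPM, Prkce, which diacylglycerol activates, from 16.2 ± 2.25 to 24 ± 0.943 CPM, and Prkch from 0.831 ± 0.508 to 2.68 ± 0.297 CPM. Prkch had a log2 fold change of 1.67, and of 2.27 without WT replicate 2. Too low in WT to pass the filter without the knockout groups, Prkch is not given as support. Lpcat3, Plcxd2 and Prkce lost the call with the liver dispersion (edgeR likelihood ratio adjusted p = 0.175 to 0.343).

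Neutral lipid genes had no common direction, while some single genes changed strongly. In de novo lipogenesis 5 rose and 9 fell of 19, and Scd1, Acaca and Fads1 were not called. Elovl6, which lengthens palmitate, fell from 78.8 ± 3.14 to 54.7 ± 1.6 CPM, and Srebf1 rose by 0.33 log2. Of 10 tested triglyceride synthesis genes 2 rose and 3 fell, and of 12 lipolysis genes 7 rose and 2 fell. Lpl, counted among the 7, passed the filter only through the knockout groups and is not given as support. Dgat2, the last step of synthesis, stood at 311, 311 and 321 CPM in WT and 536, 552 and 514 in tKO, while Gpam, the first step, stood at 85.3, 72.4 and 75.1 CPM in WT and 44.6, 44.9 and 48.3 in tKO. The 2 ends of the pathway thus moved in opposite directions beyond the spread. Mgll, which cleaves monoglycerides, fell from 27.7 ± 1.97 to 13.3 ± 1.49 CPM. For uptake, Cd36 stood at 16.3, 13.8 and 15.3 CPM in WT and 62.1, 49.6 and 48.9 in tKO, a log2 fold change of 1.82 ± 0.0894 (SE; edgeR adjusted p = 1.33e-29), and Fabp4 rose from 3.37 ± 0.855 to 10.3 ± 1.81 CPM. The hepatocyte transport proteins Slc27a2, Slc27a5 and Fabp1 fell from 212 ± 8.72 to 125 ± 7.35 CPM, from 549.8 ± 8.53 to 339 ± 3.06 CPM and from 576 ± 13.5 to 364 ± 17.5 CPM. The droplet coat Plin2 was not called, at 670.0 CPM in WT and 663 in tKO. Cd36, Lpl and Fabp4 are also expressed by endothelial cells and macrophages, whose markers moved in the same direction, and their part in these values was not tested. Elovl6, Fabp1 and Srebf1 lost the call with the liver dispersion (edgeR likelihood ratio adjusted p = 0.0537 to 0.582).

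In fatty acid oxidation and ketone synthesis 8 genes rose and 16 fell of 36 tested. Pdk4, which blocks glucose oxidation, stood at 63.8, 53.1 and 60 CPM in WT and 206, 203 and 212 in tKO, and the coactivator Ppargc1a rose from 3.44 ± 0.212 to 7.55 ± 1.08 CPM. The entry enzyme Cpt1a fell from 42 ± 2.72 to 32.9 ± 4.19 CPM and Angptl4, a secreted lipase inhibitor, from 151 ± 10.6 to 86.3 ± 0.821 CPM. The larger rises were outside mitochondrial oxidation itself, in which 1 of 15 genes rose and 6 fell. Nuclear genes of oxidative phosphorylation numbered 0 higher and 13 lower of 43, none by 2-fold or more, with a median of −0.07. Of 50 cytosolic ribosomal proteins 17 rose and 3 fell, none by 2-fold or more, with a median of 0.04. Cpt1a lost the call with the liver dispersion (edgeR likelihood ratio adjusted p = 0.557).

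Cholesterol synthesis genes changed by small steps, with 11 higher and 4 lower of 25, none of them 2-fold, and a median of 0.08. Tm7sf2 fell from 63.1 ± 2.15 to 39.2 ± 1.2 CPM. With the liver dispersion 1 gene of the list, Tm7sf2, was called. Of 24 apolipoprotein and lipoprotein genes 7 rose and 9 fell. Apoc3, which slows clearance of triglyceride, fell from 549.7 ± 8.71 to 351 ± 29.4 CPM and Apoc2, the activator of Lpl, rose from 29 ± 1.12 to 56.7 ± 3.24 CPM. Apob and Apoa1 were not called, at 2782 CPM in WT and 2782 in tKO for Apob and 1928 and 1951 for Apoa1. Apoc3 lost the call with the liver dispersion (edgeR likelihood ratio adjusted p = 0.0645).

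Bile acid genes changed most at the 12-alpha-hydroxylase. Cyp8b1, which sets the share of cholic acid, stood at 12.9, 15.8 and 12.9 CPM in WT and 2.17, 3.64 and 1.73 in tKO, a log2 fold change of −2.46 ± 0.18 (SE; edgeR adjusted p = 1.89e-20). Cyp7b1, of the alternative pathway, stood at 34.1, 34.6 and 32.2 CPM in WT and 17.5, 14.4 and 16.7 in tKO, and Cyp7a1, the rate-limiting enzyme of the classic pathway, at 0.767, 0.973 and 1.73 CPM in WT and 2.99, 3.23 and 2.34 in tKO. Cyp8b1 and Cyp7b1 were lower and Cyp7a1 higher in all tKO libraries, although Cyp7a1 rested on few counts, with 7, 9 and 16 counts in WT and 29, 31 and 23 in tKO. The uptake carrier Slc10a1 (NTCP) fell from 122 ± 7.03 to 70.3 ± 4.48 CPM and the export pump Abcb11 rose from 94.2 ± 2.35 to 107 ± 1.41 CPM. Of 21 tested genes of 24, 10 rose and 9 fell. Abcb11 lost the call with the liver dispersion (edgeR likelihood ratio adjusted p = 0.86).

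Glucose and fructose genes changed by small steps in both directions, with 9 higher and 12 lower of 31 and none changed 2-fold. Ldha fell from 1839.7 ± 5.19 to 1374 ± 60.9 CPM and Gapdh from 6711 ± 177 to 5454 ± 99.5 CPM, while the liver pyruvate kinase Pklr stood at 168, 174 and 142 CPM in WT and 276, 297 and 294 in tKO, higher in tKO. Ketohexokinase (Khk), the entry of fructose, fell from 146 ± 6.45 to 95 ± 3.72 CPM and Tkfc, a later step, rose from 147 ± 5.18 to 209 ± 8.79 CPM. Pcx and Gys2 were not called. Of 20 urea cycle and periportal genes 7 rose and 8 fell, and of 17 tested pericentral genes 7 rose and 3 fell. The urea cycle gene Cps1 and the pericentral gene Cyp1a2 were not called. Gapdh, Khk, Ldha and Tkfc lost the call with the liver dispersion (edgeR likelihood ratio adjusted p = 0.084 to 0.648).

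Stress genes rose in part. Of 18 cytosolic heat shock genes 14 rose and 1 fell, with the small chaperone Hspb1 at 75.2, 72.2 and 65.9 CPM in WT and 149, 175 and 165 in tKO and Hspa1b at 10.7, 9.84 and 9.86 CPM in WT and 18.2, 18.8 and 26 in tKO. Both were higher in every tKO library. Of 19 tested targets of the integrated stress response 9 rose and 7 fell. Ddit3 (CHOP) rose from 19 ± 1.48 to 46.4 ± 1.57 CPM and Asns, asparagine synthetase, from 47.8 ± 1.37 to 98 ± 3.3 CPM, while Ddit4 fell from 58.5 ± 4.99 to 24.8 ± 1.51 CPM. In endoplasmic reticulum folding, 10 rose and 8 fell of 31, none by 2-fold or more. The chaperones Hsp90b1 and Pdia3 were not called.

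Immediate early genes, which the isolation of cells also induces, rose in 23 and fell in 2 of 26 tested genes of 28, with a median of 0.52. Egr1 stood at 128, 132 and 128 CPM in WT and 309, 316 and 311 in tKO and Fos at 7.13, 5.95 and 7.04 CPM in WT and 25.6, 30.5 and 28.7 in tKO, without overlap. Klf6 rose from 386 ± 8.32 to 827 ± 33.2 CPM. The part of cell handling in these values was not tested. Among p53 targets 6 rose and 8 fell of 21, and Cdkn1a was not called, while Plk2 stood at 35.4, 37 and 37.3 CPM in WT and 179, 175 and 177 in tKO. Cell cycle genes numbered 7 higher and 3 lower of 26 tested of 29, with Mki67 at 0.87 CPM in WT and 2.26 in tKO. Mki67 was too low in WT to pass the filter without the knockout groups. Of 20 clock genes 8 rose and 2 fell, and Arntl, Clock and Per2 were not called.

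Many markers of other liver cells were higher in tKO, and some were not. The summed level of 22 liver endothelium markers was 44.2 to 50.4 CPM in WT and 159 to 174 CPM in tKO, and 264 to 281 in dKO. The junction protein Cdh5 had 50, 57 and 67 counts in WT and 303, 317 and 309 in tKO and Pecam1 27, 44 and 34 counts in WT and 160, 146 and 162 in tKO, while Stab2, a scavenger receptor of sinusoidal endothelium, had 71, 49 and 55 counts in WT and 85, 68 and 80 in tKO and was not called. The summed level of 23 listed macrophage markers of 24 was 123 to 139 CPM in WT and 375 to 396 CPM in tKO, of which Cd68 and Mpeg1 made up all but 2.17 to 3.54 CPM in WT and 14.8 to 15.8 in tKO. Cd68 had 857 to 1003 counts in WT and 2315 to 2565 in tKO, and Mpeg1 256 to 259 and 1056 to 1191. The Kupffer cell markers Clec4f, Adgre1 and Vsig4 had at most 1, 2 and 0 counts in a WT library and 5 to 10, 4 to 9 and 1 to 3 in tKO libraries. Stellate cell and fibroblast markers summed to 63.7 to 71.7 CPM in WT and 177 to 189 CPM in tKO, and 251 to 275 in dKO. Dcn, decorin, had 3, 5 and 4 counts in WT and 151, 155 and 143 in tKO, Lrat, which stores retinol in stellate cells, at most 1 count in any library of either group, and Col1a1 1 to 4 counts in tKO. Reln, of stellate cells, had 166, 178 and 140 counts in WT and 163, 165 and 146 in tKO, and the macrophage receptor Csf1r 0 to 7 counts in WT and 5 in each tKO library. Of 22, 24 and 25 genes in the 3 lists, 20, 10 and 15 passed the filter, some only through the knockout groups, so no count of calls is given for them. The T cell gene Cd3e, the neutrophil gene S100a9 and the adipocyte gene Plin1 had 0 to 2 counts in any WT or tKO library, and Adipoq and S100a8 were not listed. The cholangiocyte keratins Krt7 and Krt19 had 0 to 5 counts and Epcam 8 to 13 in WT and 6 to 9 in tKO, while Sox9, a transcription factor of biliary and stressed liver cells, stood at 70.1, 76.2 and 86.6 CPM in WT and 167, 159 and 163 in tKO. In RNA of bulk cells a larger share of such cells and more RNA per cell cannot be told apart. The part of these cells in the rise of interferon, chemokine, NF-kappaB and oxidase genes was not tested. Endothelial and stellate sums were higher in dKO than in tKO. So was the sum of the chemokine and cytokine list, at 2907 to 2982 CPM in dKO and 2523 to 2593 in tKO. Within it the chemokines differed less, at 1101 to 1159 CPM in dKO and 1053 to 1086 in tKO. The interleukin, TNF family and receptor genes stood at 1802 to 1866 CPM in dKO and 1470 to 1520 in tKO. The NF-kappaB sum was also higher in dKO, at 3590.4 to 3692 CPM, than in tKO, at 3068.5 to 3181. The interferon sum, at 6520.4 to 6630.2 CPM in dKO, was lower there than in tKO. The oxidase sum, at 92.1 to 112 CPM in dKO, overlapped with tKO. The macrophage sum, at 333 to 350 CPM in dKO, was lower there than in tKO. Without Cd68 and Mpeg1 the macrophage sum was higher in dKO than in tKO, at 19.8 to 23.9 CPM in dKO.

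**Figure D4:**
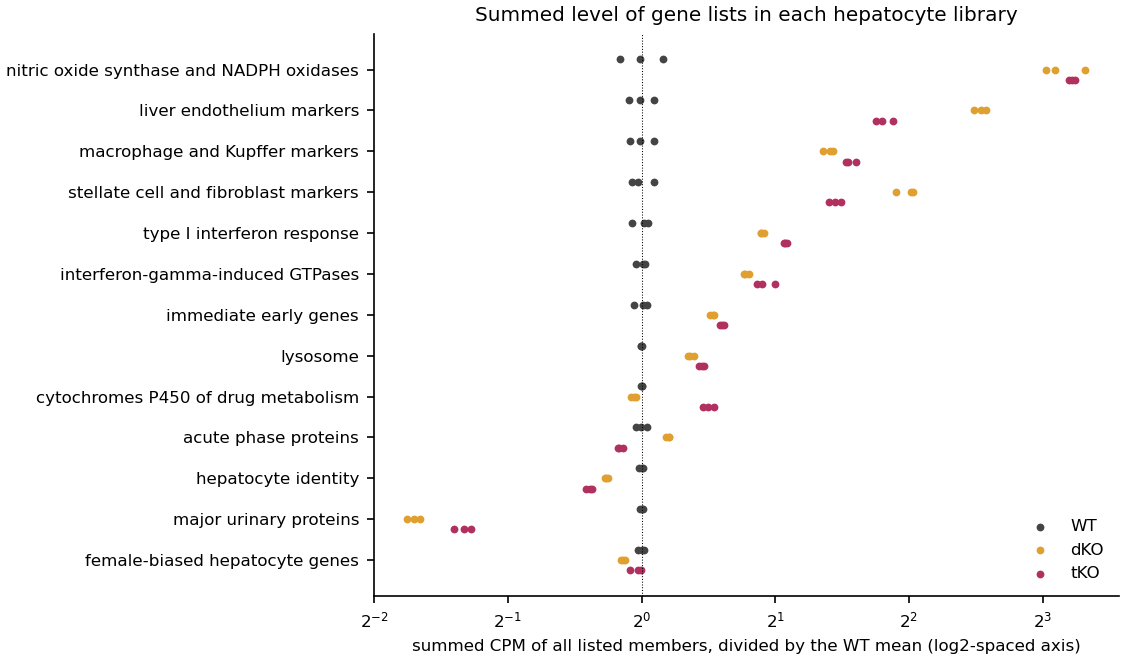
Summed CPM of all listed members of 13 gene lists in each hepatocyte library, divided by the WT mean (log2-spaced axis), with WT in grey, dKO in ochre and tKO in red. Libraries of a group lie close together, endothelial and stellate markers stand highest in dKO, the cytochrome sum is raised in tKO alone, and acute phase genes lie above WT in dKO and below it in tKO.

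Against dKO, tKO differed in 3382 of 11471 genes (29.5%), 1641 higher (14.3%) and 1741 lower (15.2%). All 26 acute phase genes were lower in tKO than in dKO, with log2 differences of −1.10 for Hamp2, −1.02 for Hamp, −0.84 for Serpina3n and −0.57 for Saa1. Hamp stood at 578, 614 and 574 CPM in dKO, against 365 to 392 CPM in WT and 265 to 307 CPM in tKO. Of 31 folding genes of the endoplasmic reticulum 24 were higher in tKO than in dKO and 3 lower. The log2 difference was 1.12 for Creld2, 1.0 for Pdia4, 0.66 for Hsp90b1 and 0.60 for Hspa5 (BiP). Against WT none of these 31 genes changed at least 2-fold. Of 45 interferon genes 18 were higher and 3 lower in tKO than in dKO. Of 18 heat shock genes 14 were higher and 0 lower, with Hspb1 at 1.78. Lipogenic genes also lay above dKO in part, with Acaca at 1.09 and Scd1 at 0.81 ± 0.0433 (SE; edgeR adjusted p = 1.16e-15). Of the female-biased genes tested, 15 were lower and 2 higher in tKO than in dKO, with Cyp2b10 at −1.94 ± 0.0855 (SE; edgeR adjusted p = 1.65e-33). Male-biased genes went the other way, with 13 of 23 tested higher in tKO than in dKO and 3 lower. The part of donor sex, which the labels do not give, was not tested. With the liver dispersion 110 genes were called higher (0.959%) and 216 lower (1.88%) than in dKO. These held 0 higher and 4 lower acute phase genes, and 4 folding, 3 heat shock and 1 interferon gene, all higher. Of the female-biased genes they held 1 higher and 13 lower, and of the male-biased genes 8 higher and 2 lower. Hamp, Hamp2, Serpina3n, Creld2, Pdia4, Hspb1, Acaca, Scd1 and Cyp2b10 kept the call there, while Saa1, Hsp90b1 and Hspa5 lost it (edgeR likelihood ratio adjusted p = 0.142 to 0.285).

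**Figure D5:**
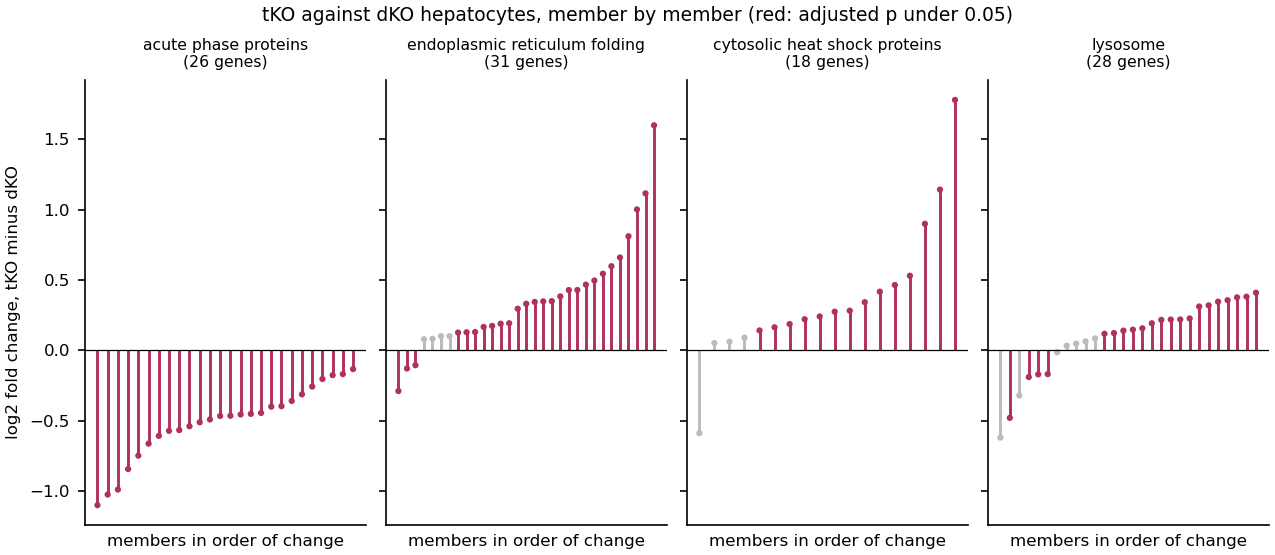
Log2 fold change, tKO minus dKO, of every tested gene in 4 lists, sorted within each list, with called genes in red. All 26 acute phase genes lie below 0, and most of the 31 folding, 18 heat shock and 28 lysosome genes lie above it.

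A few genes stand apart by their place in the genome or their sequence copies. Rpl34, of the large ribosomal subunit, stood at 129, 130.3 and 129.6 CPM in WT and 5.16, 7.59 and 3.56 in tKO, while its processed copy Rpl34-ps1 stood at 2.74, 3.78 and 2.82 CPM in WT and 169.6, 171 and 165 in tKO. The dKO libraries lay with tKO, at 5.23, 5.37 and 4.64 CPM for Rpl34 and 173, 157 and 175 for the copy. Together the pair took 130.1 to 132.9 CPM in WT and 171.5 to 180.7 in tKO, and since reads of the pair cannot be told apart with certainty, both values are uncertain. Rpl34 lies 0.589 Mb from Sgms2 on chromosome 3. Ifi202b, an interferon-inducible gene known to differ between mouse strains, had 73, 77 and 74 counts in tKO and was not listed in any WT or dKO library, at least 72.2-fold higher. Genes at least 2-fold changed within 5 Mb of the targeted genes numbered 9 of 49 around Sgms1 (18.4%), 4 of 32 around Sgms2 (12.5%) and 3 of 49 around Samd8 (6.12%), against 7.82% of all. Around Sgms1 they were Ifit1, Ifit2, Ifit3, Ifit3b, Fas, Ch25h, Ankrd1, Il33 and Gldc, around Sgms2 Rpl34, Camk2d, Tifa and Alpk1, and around Samd8 Rarb, Tmem254a and Zfp503. Strain background around the alleles was not tested.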

How the data were processed

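RNA sequencing of 9 hepatocyte libraries was analysed, 3 each of WT, dKO and tKO. Per the file headers, the authors deposited for each library an expected count, an FPKM value and a gene length in bases per Entrez gene, and genes at 0 are left out of a file, so a missing gene was taken as 0. Of the deposited expected counts 6.254% were not whole, and they were rounded. The 8 deposited liver libraries hold raw counts per gene, per the file headers, and gave only the common dispersion. The submitters' processing notes name Trimmomatic 0.36, STAR 2.5.2b, Bowtie2 2.2.5, DESeq2 1.30.1, GRCm38 and mm10 without their roles. No label or header names the program that counted reads or its strand setting, and reads of near-identical or overlapping genes may have been split between them.

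All 9 hepatocyte libraries entered 1 fit with edgeR 4.0.16 (R 4.3.3): filterByExpr with a minimum count of 10, TMM scaling, a robust quasi-likelihood F test of tKO minus WT, and Benjamini-Hochberg adjustment over 11471 genes with a threshold of 0.05. The standard error of a log2 fold change is its size divided by the square root of F. The libraries hold 9221488 to 9665309 counts. The chi-square per gene between libraries of 1 group was 1.56 to 2.76 in hepatocytes and 23.9 to 185 in liver. The hepatocyte values lay far nearer to counting noise than the liver values. Each library was treated as separate, but whether the 3 of a hepatocyte group came from separate mice was not tested. On simulated counts for 11357 genes with 200 changed, the fit recovered 83.6% of genes changed 1.5-fold, 95.5% changed 2-fold and 97.0% changed 4-fold. Of its 200 calls 16 were false. Every simulated gene had the common dispersion of the hepatocyte libraries, and far fewer genes changed than the 5435 called here. The simulation thus checked how the fit runs and cannot vouch for the calls in these data.

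Alternatives were DESeq2 1.42.0, limma 3.58.1 on log2(FPKM + 1) and log2(FPKM + 0.1), other scalings, no filter, the liver dispersion with and without liver WT 1, the WT and tKO libraries alone, and leaving out each library. Members of the 52 gene lists, and the lists themselves, were chosen with earlier results of these data known, so each list is given by counts and a median with no test of its own. Named were the 3 targeted genes, the 15 steepest called rises and the 15 steepest called falls. These rises and falls had to have a mean of at least 5 CPM and groups that did not overlap. Predicted, clone and numbered gene names were left out of them. Also named were the 10 largest changes in FPKM each way, up to 6 members of each list by p and members needed to describe a role. Genes listed in only 1 group with a mean of at least 20 counts were named too, as were genes changed 2-fold within 5 Mb of a targeted gene. A smaller set of all these named genes is printed, and some not called were named for contrast after their values were seen. Promoters were matched by symbol to RefSeq (GRCm38.p6), 11794 promoters of 9251 tested genes, each from 250 bases before to 50 after the start.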

Additional observations from a re-analysis of the deposited data

How the results depend on the processing

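The dispersion decided most calls. With the liver dispersion 1221 genes were called instead of 5435, 877 higher and 344 lower instead of 2935 and 2500, since hepatocyte libraries of 1 group varied by 3.52% and liver libraries by 20.3%. Without liver WT 1, an alternative chosen after seeing the data, the liver dispersion gave 1658 calls, 1116 higher and 542 lower. The chi-square per gene was 168 to 185 in its pairs and 23.9 to 56.0 in the other liver pairs. On log2(FPKM + 1), limma called 381 genes with at least 2-fold change instead of 897, 303 higher and 78 lower instead of 695 and 202, and this scale shrinks changes of low genes. Every other alternative left these counts within 1.5 times, among them DESeq2 with 4513 calls, the WT and tKO libraries alone with 5307, RLE scaling with 5448, library totals with 5404, no filter with 5610, and limma on log2(FPKM + 0.1) with 5030. Leaving out 1 library gave 4872 to 5115 calls. Library totals moved the median of all genes to 0.03 and the share of higher calls from 54.0% to 59.96%. Of 416 genes tracked one by one, 159 lost the call with the liver dispersion, 124 with it taken without liver WT 1, and at most 7 under any other alternative, and no called gene changed direction. No paired analysis was possible because the groups share no replicate number (1 to 3, 4 to 6 and 7 to 9). Genes with a few counts per library, such as Cyp7a1 or Sult5a1 in tKO, are limited by depth.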

Other observations

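The deposited gene length is a mean over the transcripts of a gene weighted by their estimated share, so a shift in it describes a shift in the transcripts assigned. Among 3237 tested genes whose length varied between libraries, 433 had tKO and WT lengths that did not overlap (13.4%), 192 longer and 241 shorter in tKO, and none of them by 1.25-fold or more. For Egfr, the receptor of epidermal growth factor, whose short forms are secreted without the kinase, lengths were 4220 to 4278 bases in WT, 4752 to 4835 in tKO and 4870 to 4942 in dKO. Egfr itself had a log2 fold change of −0.40 (edgeR adjusted p = 4.94e-15). For Wdfy1, an adaptor of endosomal Toll-like receptor signalling, they were 4399 to 4426 bases in WT, 3617 to 4097 in tKO and 4254 to 4385 in dKO, with a log2 fold change of −0.98 (edgeR adjusted p = 6.46e-26). For Ankrd33b they were 4254 to 4427 bases in WT, 5038 to 5098 in tKO and 4236 to 4385 in dKO. These lengths come from estimated shares with no counts per transcript, and no test was made.

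Some genes were listed in all libraries of 1 group and in no library of the other. There were 141 listed in tKO only and 30 in WT only, and of these 2 and 2 had a mean of at least 20 counts, Ifi202b and Cyp4a12b in tKO and Cyp2b13 and Sult2a2 in WT.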
